A study of Bos taurus with 23 samples.

Results

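The explants described here are the 4 pairs of bovine endometrium in which a uterus gave an explant cultured with an AI conceptus and another cultured with an IVF conceptus. They make up 8 of the 23 RNA libraries of the series and were chosen from the titles and treatment labels alone. The number after the letter U in the title is read here as the uterus, which the labels do not spell out, and AI 1 below is the AI explant of uterus 1. Uteri 1 to 4 hold 4 AI and 4 IVF explants, and each also gave a Control and an IFNT explant.

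Explants were cut from intercaruncular endometrium, the glandular lining between the sites of placental attachment, of uteri taken mid-way through the luteal phase. All were cultured for 6 h in RPMI medium. Control explants had medium alone, and IFNT explants had 100 ng per mL of recombinant ovine interferon tau. AI explants had a Day 15 conceptus grown from a transferred blastocyst that was derived in vivo. IVF explants had a Day 15 conceptus grown from a transferred blastocyst that was produced in vitro. The labels give no breed, age or donor of the uteri, and no sire or dam of the conceptuses. An explant holds epithelium, stroma, vessels and immune cells together, so a gene at a lower level cannot be told apart from fewer cells that express it.

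The ruminant conceptus elongates from a sphere to a filament before it attaches. Its trophoblast secretes interferon tau, a type I interferon that acts on the endometrium, induces interferon-stimulated genes and prevents the release of prostaglandin pulses that would end the luteal phase. Longer conceptuses generally secrete more of it. The conceptus also releases prostaglandins, cortisol and further proteins besides interferon tau, so endometrial genes can respond to a conceptus through interferon tau or through other signals. Embryos produced in vitro are known to differ from those produced in vivo in survival and gene expression, and the series asked whether the endometrium responds differently to the 2 kinds.

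The AI conceptus was the longer of the pair in 4 of 4 uteri. In uterus 1 the AI conceptus measured 31 mm and the IVF conceptus 14 mm. In uterus 2 the lengths were 29 and 8 mm. In uterus 3 they were 23.5 and 21 mm, and in uterus 4 they were 21 and 19 mm. The AI conceptus was therefore 17 and 21 mm longer in uteri 1 and 2, and 2.5 and 2 mm longer in uteri 3 and 4. Mean length was 26.1 mm ± 4.66 (SD, n = 4) for AI and 15.5 mm ± 5.80 (SD, n = 4) for IVF. Origin and length were thus not separated by the design, and every AI and IVF difference below stands beside these lengths. Sex was also mixed. The AI conceptuses were 3 females and 1 male and the IVF conceptuses 2 of each, and in 1 of the 4 pairs, that of uterus 2, both were of the same sex. All 4 AI titles carry the same further code, and the IVF titles carry 1 code in uteri 1 and 2 and another in uteri 3 and 4. What this code marks is not stated, and it cannot be told apart from origin.

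The AI libraries held 27987043 to 31789316 counts and the IVF libraries 29975720 to 35964175. Of 18897 genes in the table, 15046 were tested, and they held 99.98% of the counts. The table gives Ensembl identifiers, for which no gene symbols could be matched. Genes are therefore described by how they behaved in the explants, and the tissue label could not be checked against marker genes. Levels are given in CPM, the counts of a gene relative to the scaled total of its library, and differences between 2 explants of a uterus as differences in log2 CPM.

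No gene differed between AI and IVF explants at a Benjamini-Hochberg adjusted p under 0.05. The share called was 0% of 15046 genes in edgeR's quasi-likelihood test with the uterus as a block, and the smallest edgeR adjusted p was 0.425. At an unadjusted p under 0.05 there were 912 genes, or 6.06%. DESeq2 with the same block called 52 genes, 47 higher and 5 lower in AI. The median size of the log2 fold change was 0.12, and the values lay between -4.11 and 2.29. The points in the plot of fold change against level spread most widely at the lowest levels, where few reads were counted.

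**Figure D1:**
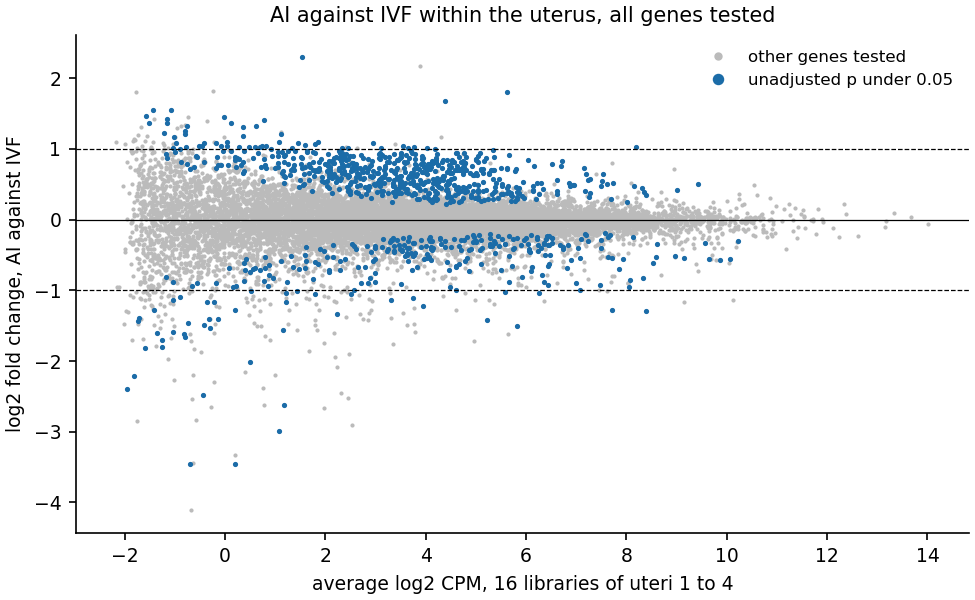
Log2 fold change of AI against IVF explants of the same uterus (vertical axis) against the average log2 CPM over 16 libraries (horizontal axis) for the 15046 genes tested, 1 point a gene. Blue points are the 912 genes at an unadjusted p under 0.05, dashed lines mark 2-fold differences, and no gene passed the adjusted threshold.

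The test also gives an interval for the difference of each gene. These intervals are not adjusted over the genes tested, so they do not bound what could have gone uncalled. The 95% confidence interval of the log2 fold change had a median half-width of 0.40. It lay wholly within 2-fold in either direction for 11793 genes, or 78.4%, and within 1.5-fold for 8172 genes, or 54.3%. Among the 9743 genes with an average log2 CPM of at least 3, the shares were 93.2% and 75.1%. For 96.1% of all genes tested the interval lay within 4-fold. For most well-expressed genes a mean difference over 2-fold between AI and IVF explants of these uteri thus lay outside the interval. With 4 pairs, the interval still held smaller differences for many of them. AI was above IVF in 4 of 4 uteri for 1161 genes, which is 7.72%, and below in 4 of 4 for 889 genes, which is 5.91%.

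The uterus accounted for more of the variation than the kind of conceptus. In the 8 AI and IVF libraries, 65.8% of the variance over all tested genes lay between the 4 uteri and 8.48% between AI and IVF. The remaining 25.8% was the part of the AI and IVF difference that was not shared by the uteri. These 3 parts have 3, 1 and 3 degrees of freedom in turn. If all 7 degrees of freedom carried equal variance, the uterus would hold 42.9%, AI or IVF 14.3% and the remainder 42.9%. The first principal component of these libraries held 35.0% of the variance and the second 21.2%.

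The size of the AI and IVF difference varied widely between uteri. Over 12555 genes with an average log2 CPM of at least 1, AI and IVF differed at least 2-fold in 1523 genes, or 12.1%, in uterus 1. The number was 126 genes, or 1.00%, in uterus 2. It was 220 genes, or 1.75%, in uterus 3 and 416 genes, or 3.31%, in uterus 4. The uterus with the most genes apart and the one with the fewest were thus those with the widest gaps in conceptus length. In uterus 1, 667 genes were at least 2-fold higher and 856 at least 2-fold lower in AI. IFNT and Control explants of the same uteri differed at least 2-fold in 590, 1431, 1122 and 832 genes for uteri 1 to 4. In uteri 2, 3 and 4 the AI and IVF explants were therefore closer to each other than the IFNT and Control explants were, and in uterus 1 they were further apart.

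The AI minus IVF difference showed little likeness from uterus to uterus. Across all 15046 genes, the AI minus IVF difference in uterus 1 had Pearson's r of -0.22 with that in uterus 2. For uterus 1 with uterus 3 it was 0.00, and for uterus 1 with uterus 4 it was -0.05. It was 0.11 for uteri 2 and 3, 0.10 for uteri 2 and 4 and 0.21 for uteri 3 and 4. The median of the 6 values was 0.05. The same measure for IFNT minus Control, a treatment that was the same in each uterus, ran from 0.14 to 0.58 with a median of 0.42. The contrast depended on the coefficient. By Spearman's rank correlation, IFNT minus Control ran from -0.19 to 0.35 and AI minus IVF from -0.17 to 0.28, so these ranges largely overlapped. These are correlations across genes, which are not independent replicates, and pairs of uteri share no library. Among the 9743 genes with an average log2 CPM of at least 3, uteri 3 and 4 had an r of 0.43 and uteri 2 and 3 had 0.27, while uteri 1 and 2 stayed negative at -0.27. Uteri 3 and 4 were also those whose IVF titles share a code, whose lengths differed by 2.5 and 2 mm, and whose conceptus sexes were opposite to each other in both AI and IVF.

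**Figure D2:**
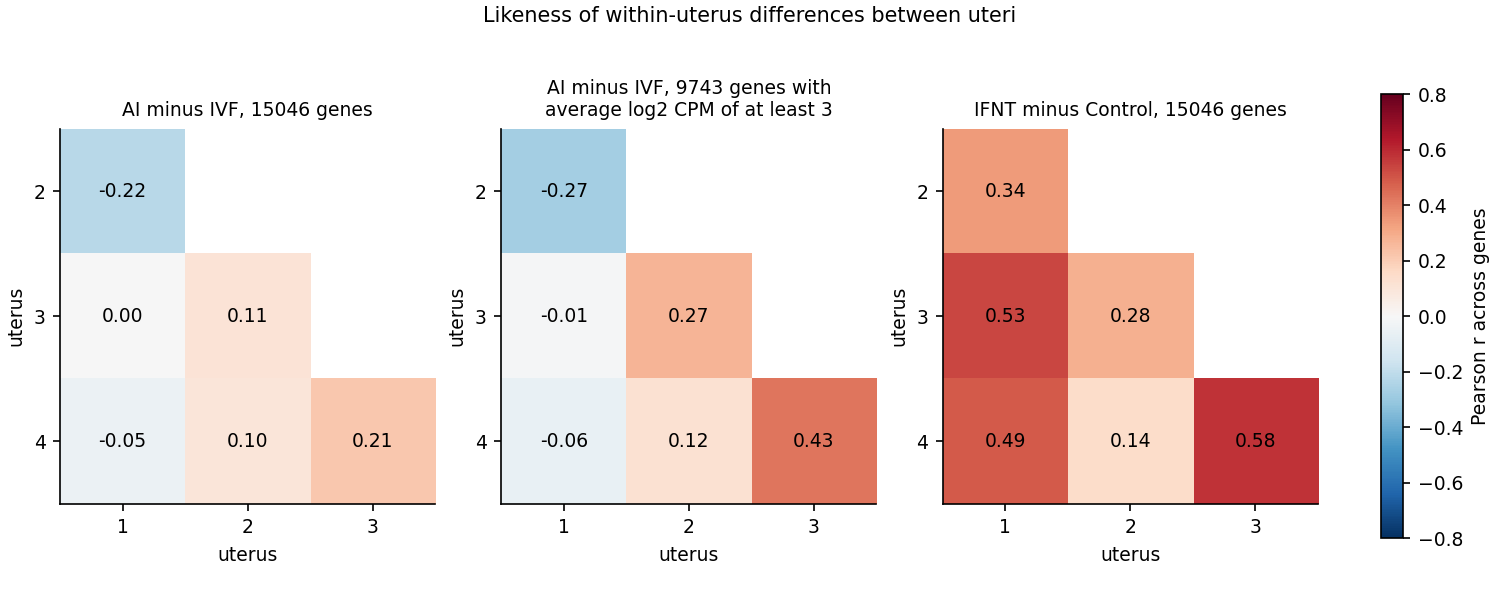
Pearson's r across genes between uteri (rows and columns are uterus numbers) for the AI minus IVF difference in all 15046 genes, for the same in 9743 better expressed genes, and for IFNT minus Control. The 6 AI minus IVF values in the first panel lie between -0.22 and 0.21, below most of the IFNT minus Control values, which lie between 0.14 and 0.58.

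Genes at least 2-fold apart in 2 uteri were also counted by direction. In uteri 1 and 2, 5 genes were at least 2-fold higher in AI in both, 1 was at least 2-fold lower in both, and 46 were at least 2-fold apart in opposite directions. In uteri 3 and 4, 30 were higher in both, 40 lower in both and 18 opposite. Uteri 1 and 3 had 61 higher in both, 7 lower in both and 36 opposite, although their r across all genes was 0.00. For uteri 1 and 4 the numbers were 53, 32 and 67, for uteri 2 and 3 they were 7, 10 and 8, and for uteri 2 and 4 they were 14, 9 and 17. For IFNT and Control, 216 genes were at least 2-fold higher with IFNT in both uteri 1 and 2, 38 lower in both and 9 opposite. In uteri 3 and 4 those numbers were 396, 61 and 21. They were 373, 26 and 5 for uteri 1 and 3, and 322, 18 and 15 for uteri 1 and 4. More were opposite for uteri 2 and 3, at 258, 60 and 103, and for uteri 2 and 4, at 212, 26 and 170.

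Most of the wide differences in uterus 1 came from a group of 260 genes that were at least 4-fold lower in AI 1 than in IVF 1, against 27 that were at least 4-fold higher. In the other uteri 5, 9 and 32 genes were at least 4-fold lower in AI. The 260 genes had a mean log2 CPM of 2.04 in AI 1 and 5.38 in IVF 1. In AI 2 and IVF 2 the means were 2.83 and 2.40. They were 2.70 and 2.56 in AI 3 and IVF 3, and 3.23 and 3.03 in AI 4 and IVF 4. IVF 1 thus stood above the other 7 AI and IVF libraries, and AI 1 was the lowest. These genes were chosen for being apart in uterus 1, so the gap there is a description. Read in the uteri that the choice did not use, AI minus IVF was 0.43, 0.15 and 0.20 on the log2 scale, in the direction opposite to uterus 1.

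The same 260 genes were also high in 2 libraries of other uteri. Their mean log2 CPM was 5.31 in IFNT 2 and 5.10 in IVF 5, an IVF explant of a uterus with no AI partner. In Control 1 and IFNT 1 it was 4.22 and 3.93, and in the remaining Control, IFNT and IVF libraries between 2.41 and 3.80. In uterus 2, IFNT exceeded Control by 2.03 on the log2 scale in these genes. In uteri 1, 3 and 4 the IFNT minus Control difference was -0.29, 0.07 and 0.21. The high level therefore appeared in 3 explants of 3 uteri, 2 with an IVF conceptus and 1 with IFNT. Markers of other cell types could not be matched to identifiers, and their part in this was not tested.

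**Figure D3:**
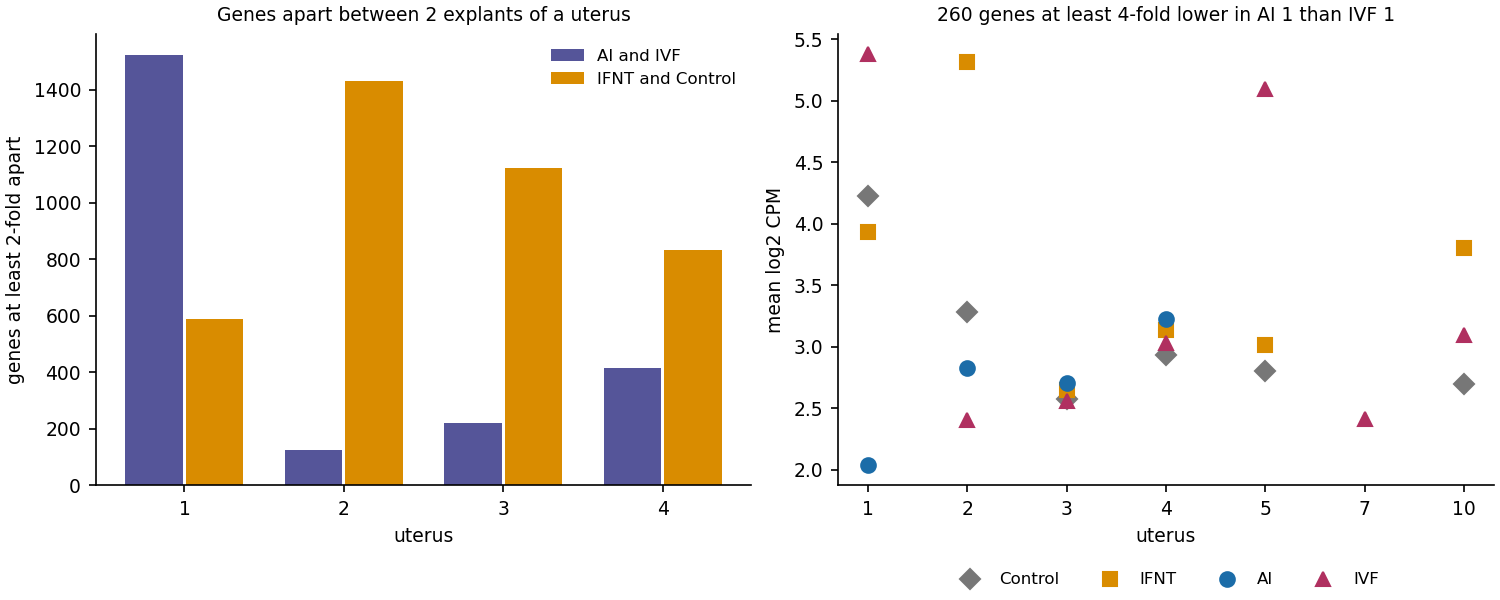
Left, the number of genes at least 2-fold apart between AI and IVF and between IFNT and Control explants of uteri 1 to 4, of 12555 genes. Right, the mean log2 CPM in all 23 libraries, by uterus, of the 260 genes at least 4-fold lower in AI 1 than in IVF 1, where IVF 1, IFNT 2 and IVF 5 lie at 5.10 or above and every other library at 4.22 or below.

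Genes raised by interferon tau stood on average above Control with both kinds of conceptus, and their mean levels with AI and IVF differed by less than the spread between uteri. IFNT explants of uteri 1 to 4 were higher than Control in 529 genes and lower in 102 (edgeR, adjusted p under 0.05), 3.52% and 0.678% of those tested and 4.19% together. The contrast sets IFNT against Control explants, while the AI and IVF libraries entered the filter, the uterus terms and the estimate of the spread. The 529 genes took 9.24%, 7.93%, 8.82% and 6.16% of the counts in AI 1 to AI 4. They took 8.13%, 8.25%, 8.54% and 7.17% in IVF 1 to IVF 4. AI was the higher in uteri 1 and 3 and the lower in uteri 2 and 4, and the groups overlapped. The mean share was 8.04% ± 1.37 (SD, n = 4) with AI and 8.02% ± 0.596 (SD, n = 4) with IVF. In Control it was 2.39% ± 0.085 (SD, n = 4), and with IFNT 8.90% ± 2.50 (SD, n = 4).

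On the log2 scale, the mean of the 529 genes exceeded the Control explant of the same uterus by 1.82, 1.71, 1.84 and 1.42 with AI. With IVF it exceeded Control by 1.73, 1.76, 1.76 and 1.64. AI minus IVF was 0.09, -0.04, 0.08 and -0.22 in uteri 1 to 4, with a mean of -0.02 ± 0.14 (SD, n = 4 uteri). The gaps in conceptus length of 17 and 21 mm thus stood beside differences of 0.09 and -0.04. When the genes were called without a uterus and read in it, AI minus IVF was 0.10, -0.05, 0.11 and -0.25. Of the 529 genes, 482, or 91.1%, had an AI and IVF interval within 2-fold, against 78.4% of all tested genes. Among the genes with an average log2 CPM of at least 3 that share was 93.2%. Within 1.5-fold the shares were 57.5%, 54.3% and 75.1% in turn. The 529 genes were called in the same fit, so the choice favours genes with a small estimated spread and narrow intervals. Of the 529 genes, 10, or 1.89%, reached an unadjusted p under 0.05, against 6.06% of all tested genes. Their median log2 fold change of AI against IVF was -0.03, and that of all tested genes -0.01.

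The 102 genes lowered by IFNT stood on average below Control with both kinds of conceptus. Their mean fell below Control by 0.53, 0.57, 0.82 and 0.63 with AI, and by 0.69, 0.64, 0.67 and 0.42 with IVF. Between AI and IVF the difference was 0.16, 0.08, -0.15 and -0.20, with a mean of -0.03 ± 0.18 (SD, n = 4 uteri). Its sign changed between uteri 1 and 2 and uteri 3 and 4, and the mean was smaller than the spread. When such genes were called without a uterus and read in it, 60, 62, 16 and 42 genes in turn, they lay below Control by 0.23, 0.63, 1.38 and 0.86 with AI and by 0.41, 0.66, 1.28 and 0.34 with IVF. The AI minus IVF values were then 0.18, 0.04, -0.10 and -0.52.

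**Figure D4:**
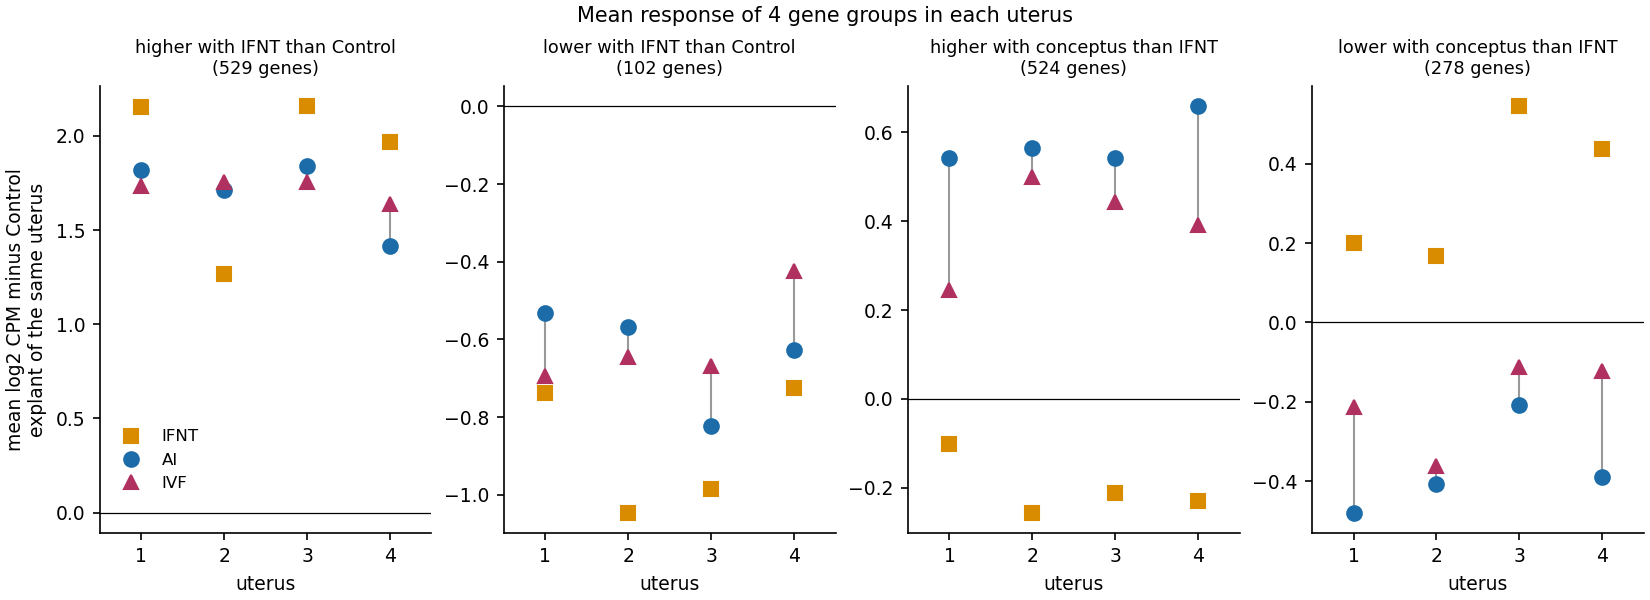
Mean log2 CPM of 4 gene groups in IFNT, AI and IVF explants minus that in the Control explant of the same uterus, for uteri 1 to 4, with a line joining AI and IVF. AI and IVF change order between uteri in the first and second panel, while in the third AI lies above IVF and in the fourth below it in each of the 4 uteri.

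The numbers of genes that differed from Control or from IFNT were larger for AI than for IVF. AI differed from Control in 1756 genes, 11.7% of those tested, of which 1105 (7.34%) were higher and 651 (4.33%) lower. IVF differed from Control in 911 genes, 6.05%, of which 633 (4.21%) were higher and 278 (1.85%) lower. Against IFNT, AI differed in 895 genes, 5.95%, of which 628 (4.17%) were higher and 267 (1.77%) lower. IVF differed from IFNT in 13 genes, 0.0864%, of which 11 (0.0731%) were higher and 2 (0.0133%) lower. These comparisons share their Control or IFNT explants, so the counts do not show that the responses differ. The direct test between AI and IVF called 0 genes in edgeR and 52 in DESeq2. The gap between the counts also depended on the model. DESeq2 called 1867 genes for AI and 533 for IVF against IFNT, and edgeR without the block called 0 for each. With all 23 libraries and no block, the order against Control turned, with 480 genes for AI and 513 for IVF. They also rested on single uteri. Without uterus 3, AI differed from Control in 532 genes and IVF in 338. AI against IFNT gave 497 and 552 genes without uterus 1 and 2, and 0 without uterus 3 or without uterus 4. IVF against IFNT gave 32 and 29 without uterus 1 and 2 and 0 without uterus 3 or 4.

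Genes that set the conceptus apart from interferon tau lay further from IFNT in AI than in IVF explants. They were chosen with the mean of AI and IVF against IFNT, which takes no account of the difference between AI and IVF. There were 524 genes higher with a conceptus than with IFNT and 278 lower (edgeR, adjusted p under 0.05), 3.48% and 1.85% of those tested and 5.33% together. Their median level in Control was 32.0 and 22.0 CPM. The 524 genes exceeded IFNT by 0.64, 0.82, 0.75 and 0.89 with AI in uteri 1 to 4, on the log2 scale, and by 0.35, 0.75, 0.66 and 0.62 with IVF. AI minus IVF was 0.30, 0.07, 0.10 and 0.27, above 0 in 4 of 4 uteri, with a mean of 0.18 ± 0.12 (SD, n = 4 uteri). Without uterus 1, with the genes called again, the mean was 0.12. The smallest exact two-sided p that 4 pairs allow is 0.125, so this mean could not pass a threshold of 0.05.

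Of the 524 genes, 413, or 78.8%, had a log2 fold change of AI against IVF above 0, where 48.0% of all tested genes did. AI was above IVF in 4 of 4 uteri for 164 of them, or 31.3%, against 7.72% of all tested genes. Their median log2 fold change was 0.14, and 132, or 25.2%, reached an unadjusted p under 0.05, against 6.06% of all tested genes. The genes were called in the same fit, with the same estimate of the spread. The choice therefore also favours genes with a small estimated spread, and with it small p-values between AI and IVF. None passed the adjusted threshold. Earlier results of these data already showed larger medians for AI than for IVF in genes of this kind, and the group was formed after that, so the counts are a description. If AI libraries varied more than IVF libraries, the choice itself would favour genes further out in AI.

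The 278 genes that were lower with a conceptus than with IFNT showed the mirror pattern. They lay below IFNT by 0.68, 0.57, 0.75 and 0.83 in AI, and by 0.41, 0.53, 0.66 and 0.56 in IVF. The AI minus IVF difference was -0.26, -0.05, -0.09 and -0.27, with a mean of -0.17 ± 0.12 (SD, n = 4 uteri). Of these genes 230, or 82.7%, had a log2 fold change below 0, where 52.0% of all tested genes did, and 70, or 25.2%, were below IVF in 4 of 4 uteri, against 5.91%. At an unadjusted p under 0.05 there were 31, or 11.2%, against 6.06% of all tested genes. In both groups the differences were larger in uteri 1 and 4, where the AI conceptus was 17 and 2 mm longer, than in uteri 2 and 3, where it was 21 and 2.5 mm longer. The part of length in these differences was not tested.

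Read in a uterus that took no part in the choice, AI minus IVF kept its sign in the 2 uteri where it could be tried. Without uterus 1, 403 genes were higher and 200 lower with a conceptus than with IFNT, and in uterus 1 AI minus IVF was 0.27 and -0.60 for them. Without uterus 2 the groups had 155 and 226 genes, and AI minus IVF in uterus 2 was 0.12 and -0.09. The distance of the lower genes from IFNT held less well. In uterus 1 the 200 lower genes were at -0.63 from IFNT with AI and -0.03 with IVF. Their choice used IFNT 2, where the genes at least 4-fold lower in AI 1 than in IVF 1 were high. Those genes had a mean log2 CPM of 5.31 in IFNT 2, 5.38 in IVF 1 and 2.04 in AI 1. The choice could thus favour genes lower in AI 1 than in IVF 1, and their part in the -0.60 was not tested. With all uteri in the choice, the lower genes had a mean AI minus IVF of -0.17. It was -0.15 without genes at least 4-fold apart in uterus 1. In uterus 2 the 226 lower genes were at 0.07 and 0.16, so they did not lie below IFNT there. The higher genes exceeded IFNT by 0.47 and 0.21 in uterus 1 and by 0.76 and 0.64 in uterus 2, with AI and IVF. Without uterus 3 or uterus 4, 0 genes were called, so those uteri gave no such value. Genes chosen by the conceptus against Control, which include the interferon-raised genes, lay closer together in AI and IVF. The AI minus IVF difference was 0.16, 0.00, 0.12 and 0.03 for the 1132 higher genes, 7.52% of those tested. It was -0.05, 0.00, -0.07 and -0.18 for the 852 lower genes, 5.66%. Together these were 13.2% of the genes tested.

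Single genes are given by identifier, 2 that stood higher in AI and 2 that stood lower, as those with the smallest p among genes with the same direction in 4 of 4 uteri. ENSBTAG00000034192 was at 15.4, 22.3, 17.3 and 22.8 CPM in AI 1 to AI 4. It was at 5.62, 16.4, 7.81 and 10.8 CPM in IVF 1 to IVF 4, at 4.90 to 15.8 CPM in the Control and 4.63 to 13.7 CPM in the IFNT explants of these uteri. AI was above IVF in every pair, and the groups overlapped only between AI 1 and IVF 2. In uteri 1 to 4, with the block, the log2 fold change was 1.04 ± 0.19 (SE), with an edgeR adjusted p of 0.425. Against Control it was 1.17 ± 0.19 for AI (edgeR adjusted p = 0.00192) and 0.13 ± 0.19 for IVF (edgeR adjusted p = 0.761). edgeR called only the AI value, and it did not call the difference between AI and IVF, which DESeq2 did (adjusted p = 0.00456).

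ENSBTAG00000012566 was at 12.9, 23.3, 10.6 and 19.2 CPM in AI and at 7.27, 18.9, 6.92 and 9.76 CPM in IVF. Both kinds were highest in uterus 2, and the groups overlapped. The IVF explants of uteri 5, 7 and 10 had 10.1, 10.1 and 7.59 CPM. Its log2 fold change was 0.67 ± 0.13 (SE, edgeR adjusted p = 0.425). The AI explants exceeded Control by 1.11 ± 0.13 (edgeR adjusted p = 0.000104) and the IVF explants by 0.43 ± 0.13 (edgeR adjusted p = 0.0636). The AI explant was the highest of the 4 explants in each uterus for both of these genes.

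ENSBTAG00000039520 was at 0.344, 2.30, 3.23 and 4.40 CPM in AI and at 0.463, 4.34, 7.99 and 10.5 CPM in IVF. In uterus 1 all levels were below 0.5 CPM, with 11 reads in AI and 14 in IVF, so the difference there rests on few reads. The log2 fold change was -1.05 ± 0.21 (SE, edgeR adjusted p = 0.425). Here IVF, and not AI, was called against Control, at 0.93 ± 0.21 on the log2 scale (SE, edgeR adjusted p = 0.0168), while AI was at -0.13 ± 0.21 (SE, edgeR adjusted p = 0.753). The IVF explants of uteri 5 and 10 went the other way. They were at 1.98 and 2.24 CPM, below the Control explants there at 2.14 and 2.48 CPM.

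ENSBTAG00000007213 was at 64.1, 41.7, 85.0 and 50.5 CPM in AI and at 85.0, 51.4, 164 and 117 CPM in IVF. IVF was the higher in every pair, with the wider gaps in uteri 3 and 4, where the lengths were closest. The log2 fold change was -0.73 ± 0.17 (SE, edgeR adjusted p = 0.425). The IVF explants exceeded Control by 0.71 ± 0.17 (edgeR adjusted p = 0.0247) and the AI explants were at -0.02 ± 0.17 (edgeR adjusted p = 0.952). In the IVF explants of uteri 5 and 10, which have no AI partner, it was at 35.7 and 37.1 CPM, below the Control explants there at 36.8 and 44.7 CPM. With all 23 libraries and no block its log2 fold change of AI against IVF was -0.32. DESeq2 called all 4 of these genes between AI and IVF, with adjusted p-values from 0.00456 to 0.0498, on the same counts on which they were chosen. The tests of these 4 genes against Control used the same AI and IVF libraries as the choice, so they are no separate evidence.

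**Figure D5:**
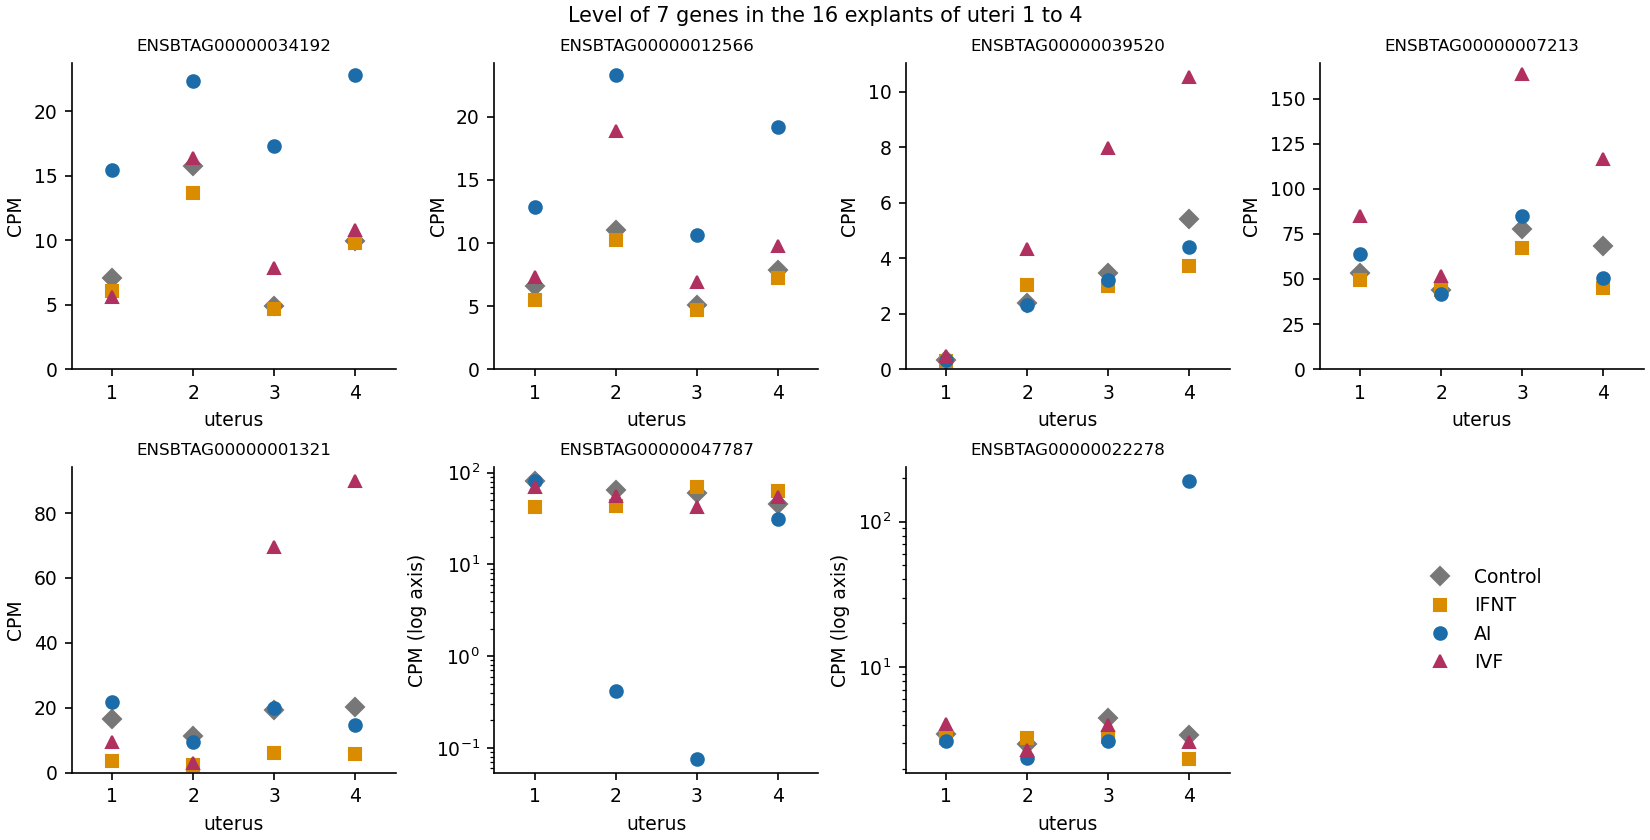
Level in CPM of 7 genes in the 16 explants of uteri 1 to 4, by uterus and treatment, with 2 panels on a log axis. In the upper row AI lies on the same side of IVF in each uterus, and in the lower row 1 or 2 libraries lie far from the others.

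The AI and IVF difference itself differed between uteri 1 and 2 and uteri 3 and 4 for 1 gene, ENSBTAG00000001321, which is 0.00665% of those tested. Like the next genes, it was singled out after its values were seen. It was at 21.9, 9.55, 20.1 and 14.6 CPM in AI and at 9.51, 2.95, 69.4 and 89.8 CPM in IVF. The Control explants of these uteri had 16.5, 11.2, 19.2 and 20.4 CPM and the IFNT explants 3.61, 2.32, 6.13 and 5.90 CPM. IVF 3 and IVF 4 were the highest of all 23 libraries, and IFNT was below Control in each uterus. AI minus IVF was 1.20 and 1.67 in uteri 1 and 2 and -1.78 and -2.61 in uteri 3 and 4. The difference between these was 3.60 ± 0.39 (SE, edgeR adjusted p = 0.0357). It was not called without the block (edgeR adjusted p = 1), without uterus 3 (adjusted p = 0.8) or without uterus 4 (adjusted p = 1), though the sign held. Without uterus 2, when uterus 1 stood alone against uteri 3 and 4, 726 genes were called, and without uterus 4 there were 0. The code in the IVF titles and the size of the length gap change between the same uteri and cannot be told apart here.

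Within either pair of uteri no gene was called between AI and IVF. The smallest edgeR adjusted p was 0.961 in uteri 1 and 2, where 649 genes, or 4.31%, reached an unadjusted p under 0.05. It was 0.136 in uteri 3 and 4, where 869 genes, or 5.78%, did.

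Length and sex were then added to the model as terms. A slope on log2 length was called for 0 genes (smallest edgeR adjusted p = 0.102), with 312, or 2.07%, at an unadjusted p under 0.05. With length held constant, AI was lower than IVF in 5 genes, 0.0332% of those tested (edgeR adjusted p = 0.049 for each), and higher in 0, while 867 genes, or 5.76%, reached an unadjusted p under 0.05. They were ENSBTAG00000001321, ENSBTAG00000007213, ENSBTAG00000006523, ENSBTAG00000013210 and ENSBTAG00000018920, with log2 fold changes from -2.54 to -1.01. In the 4 of these other than ENSBTAG00000001321, AI minus IVF lay between -0.41 and 0.00 in uteri 1 and 2 and between -1.85 and -0.92 in uteri 3 and 4. In this model the pairs of nearly equal length, uteri 3 and 4, weigh most on AI against IVF. Male against female conceptus was called for 0 genes (smallest edgeR adjusted p = 0.749), with 836, or 5.56%, at an unadjusted p under 0.05. With sex in the model AI against IVF stayed at 0 genes called (smallest edgeR adjusted p = 0.678), with 861 genes, or 5.72%, at an unadjusted p under 0.05.

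Some genes were far from the rest in 1 or 2 explants. ENSBTAG00000047787 was at 81.4 and 31.4 CPM in AI 1 and AI 4, and at 0.415 and 0.0759 CPM in AI 2 and AI 3, with 13 and 2 reads. The IVF explants had 70.3, 55.8, 42.6 and 55.0 CPM, and the 21 libraries other than AI 2 and AI 3 lay between 18.6 and 81.4 CPM. AI minus IVF was -6.85 and -8.20 in uteri 2 and 3 and 0.21 and -0.81 in uteri 1 and 4 (AI against IVF, edgeR adjusted p = 0.999). The conceptuses of AI 2 and AI 3 were both female, as was that of AI 1. ENSBTAG00000022278 was at 190 CPM in AI 4 and between 2.34 and 4.94 CPM in the other 22 libraries (AI against IVF, edgeR adjusted p = 0.946). Genes far from the rest in 1 library alone were few. This count sets a library against all others, so it leaves out ENSBTAG00000047787, which was low in both AI 2 and AI 3. Of 12555 genes, AI 4 and IVF 4 each had 1 that was at least 4-fold above all the other libraries. AI 1 had 3 and IVF 1 had 1 that were at least 4-fold below all others, and AI 2, AI 3, IVF 2 and IVF 3 had 0.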

How the data were processed

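RNA was sequenced from 23 explants with a stranded mRNA library kit, per the labels' protocols. HISAT2, StringTie and edgeR and the build UMD3.1 appear in the submitters' processing notes, without versions or roles. The deposited values are the authors' read counts per gene, whole numbers that are not normalized. The sources used here do not give the counting tool, annotation release or strand setting, so overlapping genes and near-identical copies may share reads. Columns were matched to samples by the column name in each sample's description, and 0 columns of values were left unused.

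The 16 libraries of uteri 1 to 4 were fitted in edgeR 4.0.16 (R 4.3.3, limma 3.58.1) after filterByExpr and TMM scaling, with group and uterus as terms. The quasi-likelihood F test was used for each contrast, with 9 residual degrees of freedom and Benjamini-Hochberg adjustment over all genes tested at 0.05. The biological coefficient of variation was 23.4%. CPM and log2 CPM (prior count 2) used TMM factors over all 23 libraries. DESeq2 1.42.0, other size factors, filters, samples, terms and left-out libraries were alternatives. The tests were tried on simulated counts first.

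The U numbers in the titles pair the explants. Deviations from group means correlated at r = 0.195 to 0.682 in each of 24 same-numbered pairs of libraries, and at a median of -0.201 in 72 pairs with different numbers. For AI with IVF of the same number they lay between 0.304 and 0.589. The labels do not say that a number is a uterus, and that reading is taken here. Each group has 1 explant a uterus. The chi-square per degree of freedom between libraries lay between 21.7 and 365 in 120 pairs, so none was a duplicate.

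No identifier (0) had an entry in the reference table of symbols (assembly ARS-UCD2.0), so lists of interferon-stimulated and cell type marker genes and gene sequences were not used here. The rule for named genes then gave 2 identifiers higher and 2 lower, with the smallest p among genes with an average log2 CPM of at least 1 and the same sign in 4 of 4 uteri. The comparison and lists were chosen with earlier results of these data known.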

Additional observations from a re-analysis of the deposited data

Results flagged for a closer look

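In the AI explants, ENSBTAG00000022278 was at 190 CPM in AI 4 and at 2.40 to 3.13 CPM in AI 1, AI 2 and AI 3. Its gap to the nearest of the others was 0.996 of the range, past the critical value of Dixon's test at 95% for 4 samples. The gene had been chosen for the largest excess of a library over all others among 12555 genes, so this gap restates the choice and is no separate evidence.

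For ENSBTAG00000001321 the AI minus IVF difference in uteri 1 and 2 exceeded that in uteri 3 and 4 by 3.60 on the log2 scale (edgeR interaction test, adjusted p = 0.0357). AI was the higher in uteri 1 and 2 and IVF the higher in uteri 3 and 4.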

How the results depend on the processing

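AI against IVF stayed at 0 genes under median-ratio size factors, no or a stricter filter on low counts, the 8 AI and IVF libraries alone, all 23 libraries, sex as a term, and without each uterus. The exceptions were 52 genes in DESeq2, 5 with length as a term, and 1, ENSBTAG00000004354, without IVF 2 (log2 fold change 1.37 ± 0.16, edgeR adjusted p = 0.0295). Without the replicate block, 547 genes differed for AI and Control, 382 for IVF and Control, 388 for IFNT and Control, 0 for AI and IVF and 0 for AI or IVF and IFNT, and the test between uteri 1 and 2 and uteri 3 and 4 called 0, with 3.54 for ENSBTAG00000001321. Over all 23 libraries without the block, AI and IVF differed from Control in 480 and 513 genes and from IFNT in 0. With the block IVF differed from IFNT in 3. DESeq2 called 1561 genes for IVF and Control, 1867 and 533 for AI and IVF against IFNT, 983 for IFNT and Control and 16 between the pairs of uteri.

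Leaving out a uterus or library gave 532 to 2422 genes for AI and Control, 338 to 1358 for IVF and Control, 0 to 1178 for AI and IFNT, 0 to 177 for IVF and IFNT, 308 to 909 for IFNT and Control, 0 to 1 for AI and IVF, and 0 to 726 between the pairs of uteri, the 726 without uterus 2. Without uterus 1, 2, 3 and 4, AI differed from Control in 1080, 1345, 532 and 707 genes and IVF in 584, 691, 338 and 500. AI and Control gave 1146, 1167, 1062, 1047 and 1035 genes without Control 1, 2 and 3, AI 3 and AI 4, and IVF and Control 584, 576 and 590 without Control 1, Control 3 and IVF 3. IFNT and Control gave 411 without uterus 1 and 308 without uterus 3. AI and IFNT gave 195 and 250 genes without IFNT 3 and IFNT 4, 552, 511, 407 and 117 without AI 1 to AI 4, and IVF and IFNT 177 without IFNT 2 and 88 without IVF 1. AI minus IVF ranged from -0.07 to 0.02 in the interferon-raised genes. In genes higher with a conceptus than with IFNT it was 0.12 without uterus 1 and 0.16 without uterus 2, and in genes lower it was -0.13 and -0.11. Without uterus 3 or uterus 4 no such genes (0) were called, so those settings gave no value. The 4 genes named by the rule kept their sign in 32 settings, and none passed the threshold when a uterus or library was left out. The cause of these changes was not tested. An alternative with a list of classical interferon-stimulated genes was not run, since identifiers could not be paired with symbols.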
